A study of Mus musculus with 6 samples.

Results

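A family of 10 genes of extracellular matrix breakdown, 7 matrix metalloproteinases (MMPs) and 3 tissue inhibitors of metalloproteinases (TIMPs), were examined in E0771 cells, a mouse mammary carcinoma line, that had met cytotoxic T cells. They were taken by gene symbol from a table of 28063 genes, and all 10 had a row of counts: Mmp2, Mmp3, Mmp9, Mmp10, Mmp13, Mmp14, Mmp19, Timp1, Timp2 and Timp3. The family was chosen by its name and on earlier results of these data, in which the counts of Mmp3 stood low and those of Mmp2 high in cells with added Malt1. Differences from Vector cells are therefore a description, and the adjusted p-values, from a fit across all genes, say only on which side of the threshold a gene lay. The 6 libraries formed 3 groups of 2: E0771 cells expressing wild-type Malt1 (Malt1_WT), E0771 cells expressing a mutant form of Malt1 that the labels call PD without spelling it out (Malt1_PD), and E0771 cells with a vector control (Vector). Every group shared the same exposure: 12 hours with activated CD8 T cells at 3 effectors per target, then washing, trypsin, and 6 hours back in culture before lysis. No library of cells kept away from T cells was analysed here. An effect of Malt1 and any other way in which the separately made cell populations differ cannot be told apart. Whether the 2 libraries of a group stem from different cultures is not stated, and the p-values therefore weigh a spread that may be technical.

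MMPs are zinc-dependent proteases that are made as inactive precursors and cut matrix proteins once their propeptide is removed. The stromelysin genes Mmp3 and Mmp10 and the collagenase gene Mmp13 are classically induced by inflammatory cytokines and growth factors. AP-1 and ETS factors bind their promoters. Mmp2 and Mmp9 are gelatinases that degrade basement-membrane collagen, and Mmp14 is a membrane-anchored MMP that activates the Mmp2 precursor with the help of Timp2. TIMPs bind and block the active proteases. In mammary tumours these enzymes are best known from invasion and from the release of growth factors and cytokines held in the matrix, and stromal cells are a common source of several of them.

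The members that stood lowest against Vector, Mmp3, Mmp10 and Mmp13, lie in the same gene cluster on chromosome 9. Their promoters are shown because all 3 hold a match to the AP-1 and TATA motifs near the annotated start. The sequences are RefSeq windows of GRCm38.p6, from 250 bases before to 50 bases after the annotated start, on the + strand: chr9:7445572-7445871 for Mmp3, chr9:7502092-7502391 for Mmp10 and chr9:7272264-7272563 for Mmp13. Capitals mark the AP-1 motif TGANTCA.
Mmp3: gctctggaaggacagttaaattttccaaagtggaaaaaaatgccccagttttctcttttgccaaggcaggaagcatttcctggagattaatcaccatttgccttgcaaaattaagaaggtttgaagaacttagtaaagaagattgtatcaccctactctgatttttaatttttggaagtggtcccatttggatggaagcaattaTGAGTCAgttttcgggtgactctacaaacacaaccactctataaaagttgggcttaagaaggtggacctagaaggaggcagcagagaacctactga
Mmp10: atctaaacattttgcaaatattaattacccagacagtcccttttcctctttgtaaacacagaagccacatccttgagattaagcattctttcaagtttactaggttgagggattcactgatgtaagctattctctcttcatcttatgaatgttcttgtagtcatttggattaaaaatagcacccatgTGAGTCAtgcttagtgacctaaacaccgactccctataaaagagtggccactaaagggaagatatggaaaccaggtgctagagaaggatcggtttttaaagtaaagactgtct
Mmp13: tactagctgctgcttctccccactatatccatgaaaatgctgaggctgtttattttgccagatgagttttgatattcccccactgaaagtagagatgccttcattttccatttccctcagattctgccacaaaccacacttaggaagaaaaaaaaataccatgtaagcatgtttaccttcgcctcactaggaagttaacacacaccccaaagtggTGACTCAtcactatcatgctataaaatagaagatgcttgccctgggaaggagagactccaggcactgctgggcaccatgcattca
The AP-1 match began 46 bases before the annotated start in Mmp3, 63 bases before it in Mmp10 and 35 bases before it in Mmp13. The TATA box motif TATAAA began 7 bases before the annotated start of Mmp3, 29 bases before that of Mmp10 and 16 bases before that of Mmp13. All these distances depend on the annotated starts. Where transcription began in these cells was not tested. Promoter windows were at hand for 7 of the 10 members: the 3 shown, Mmp14, Timp1, Timp2 and Timp3. Mmp2, Mmp9 and Mmp19 had no window and were not searched, so Mmp14 was the only other MMP searched. With both strands searched, the AP-1 and TATA motifs were each found in 3 of these 7 windows, the same 3 shown above, against 7.81% of all 32851 promoter windows for AP-1 and 13.6% for TATA. The PEA3-type ETS motif AGGAAG was found in 5 of the 7 (Mmp3, Mmp13, Mmp14, Timp1 and Timp3) and in 35.4% of all windows. No match overlapped a match of another motif in the members' windows. Such matches describe the letters only, and no binding was measured.

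Library totals lay between 14045390 and 19962014 counts, and the floor of 3 counts used per gene corresponds to 0.150 to 0.214 CPM (counts normalised to effective library size with TMM factors; the floor covers counting error only). Malt1 stood at 67.2 and 82.1 CPM in Malt1_WT, at 106 and 95.7 CPM in Malt1_PD and at 23.8 and 31.3 CPM in Vector, in the direction of the labels. Across 9573 genes, the difference between replicate 1 and replicate 2 followed gene length in Malt1_WT (Spearman's rho -0.53, over genes that are no independent replicates) and in Vector (-0.67), with rho at 0.048 in Malt1_PD. Of the mammary epithelial markers, Krt8 stood at 108 to 124 CPM and Epcam at 6.16 to 8.97 CPM, while Cdh1 and Krt18 did not exceed 0.598 CPM and Krt5 had no row. Krt14 had 0.712 and 1.15 CPM in Malt1_WT, 0.506 and 1.25 CPM in Malt1_PD, and 0.338 and 0.056 CPM in Vector. Of the fibroblast markers, Col3a1 stood at 445 to 456 CPM and Pdgfra at 123 to 147 CPM, Col1a1 at 31 to 61.3 CPM and Dcn at 6.05 to 12.5 CPM, while Lum had 0 to 5 counts. The 9 T cell markers summed to 3 and 16 counts in Malt1_WT, 5 and 9 in Malt1_PD and 10 and 6 in Vector, with Cd3e and Trbc1 without a row.

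Per length, the inhibitors led the family. On the RPKM scale (CPM per kilobase of gene length), Timp2 averaged 108 (range over the 6 libraries, 96.2 to 113) and Timp1 averaged 101 (86.1 to 124). The gelatinase Mmp2 averaged 29.8 RPKM (22.3 to 34.1) and the membrane enzyme Mmp14 averaged 27.7 RPKM (26.2 to 30.0). Below them came Mmp3 at 7.37 RPKM (4.62 to 13.3), Mmp9 at 6.98 RPKM (5.57 to 8.03) and Mmp19 at 4.53 RPKM (3.53 to 5.31). Mmp10 averaged 1.80 RPKM (0.828 to 3.55), Mmp13 0.337 RPKM (0.186 to 0.524), and Timp3 held 0 or 1 count in each library. Neighbours in this order whose ranges overlapped were Timp2 with Timp1, Mmp2 with Mmp14, Mmp3 with Mmp9, and Mmp19 with Mmp10, where the ranges met only through Vector replicate 2 of Mmp10. The range of Mmp3 also overlapped that of Mmp19. Library by library, Mmp3 and Mmp9 lay above Mmp19 and Mmp19 above Mmp10 in all 6. Mmp2 lay above Mmp14 in the 4 Malt1 libraries and below it in both Vector libraries, and Mmp3 lay below Mmp9 in the 4 Malt1 libraries and above it in both Vector libraries. Timp2 lay above Timp1 in every library but Vector replicate 1.

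**Figure D1:**
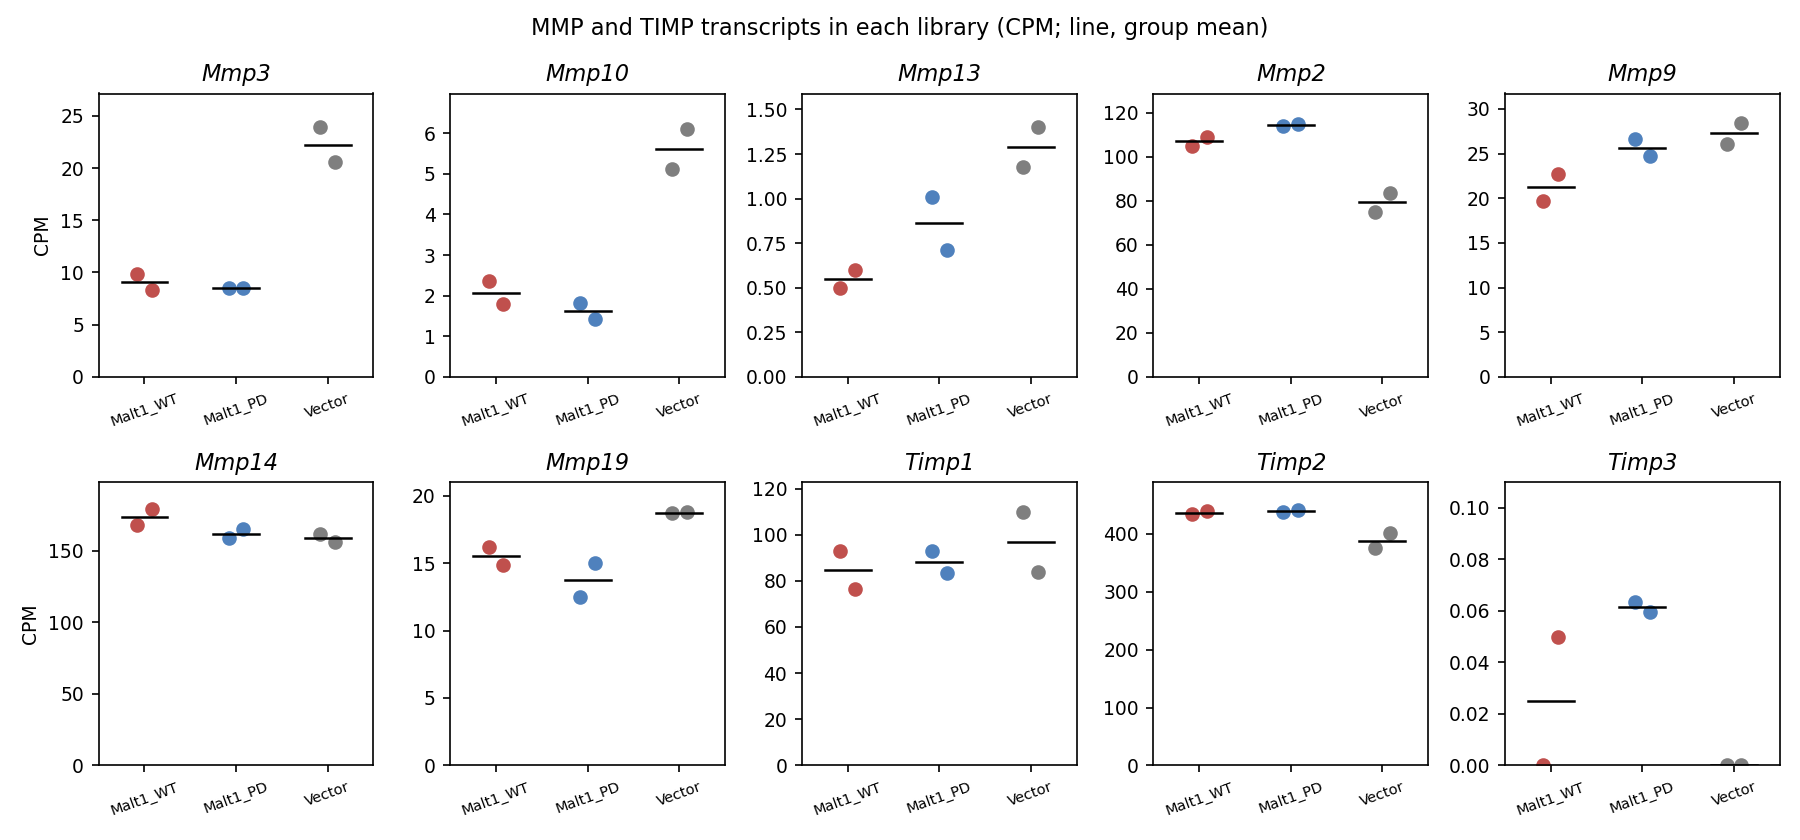
Level of each of the 10 members in CPM (vertical axes, each starting at 0) in Malt1_WT, Malt1_PD and Vector libraries, with a point per library and a line at the mean of 2. Mmp3 and Mmp10 points of both Malt1 groups sit well below the Vector points, Mmp2 shows the opposite order, and Timp3 is at 0 or 1 count in every library.

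The low-count filter of the fit kept 9 members and left out Timp3. Each of the 9 reached the minimum in both Vector libraries and in at least 1 library of both other groups. Against Vector, edgeR's quasi-likelihood test called 0 of 9 members in Malt1_WT, where it called 0.00681% of all 14675 genes higher and 0% lower. Malt1, the gene added to these cells, was itself not called there (edgeR adjusted p = 0.092). Taking an unadjusted p under 0.05, 4 of the 9 lay lower and 1 higher, against 3.8% and 3.3% of all genes. DESeq2 called 1 member among 31 genes, and limma-voom 0 among 1. The 2 Malt1_WT libraries lay below both Vector libraries for 5 members and above both for 3, against 17.1% and 15.5% of all genes. In Malt1_PD, edgeR called Malt1 (edgeR adjusted p = 0.0265) and 0 of 9 members, with 0.00681% of all genes called higher and 0% lower. Unadjusted, 3 lay lower and 2 higher, against 4.88% and 3.73% of all genes. DESeq2 called 3 members among 43 genes, and limma-voom 0 among 1. The Malt1_PD libraries lay below both Vector libraries for 4 members and above both for 2, against 19.7% and 18.4% of all genes. With the mean of the 2 Malt1 groups set against Vector, 1 of 9 members was called, Mmp3, which fell, against 0.0136% of all genes called lower and 0.0136% called higher. Unadjusted, 4 of the 9 then lay lower and 2 higher, against 5.4% and 4.45% of all genes, and 4 lay wholly below and 2 wholly above Vector, against 10.8% and 9.74% of all genes. These 3 comparisons share the Vector libraries. The median log2 fold change of the 9 was -0.28 in Malt1_WT and -0.14 in Malt1_PD, where the medians of all genes were -0.0012 and -0.0011.

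**Figure D2:**
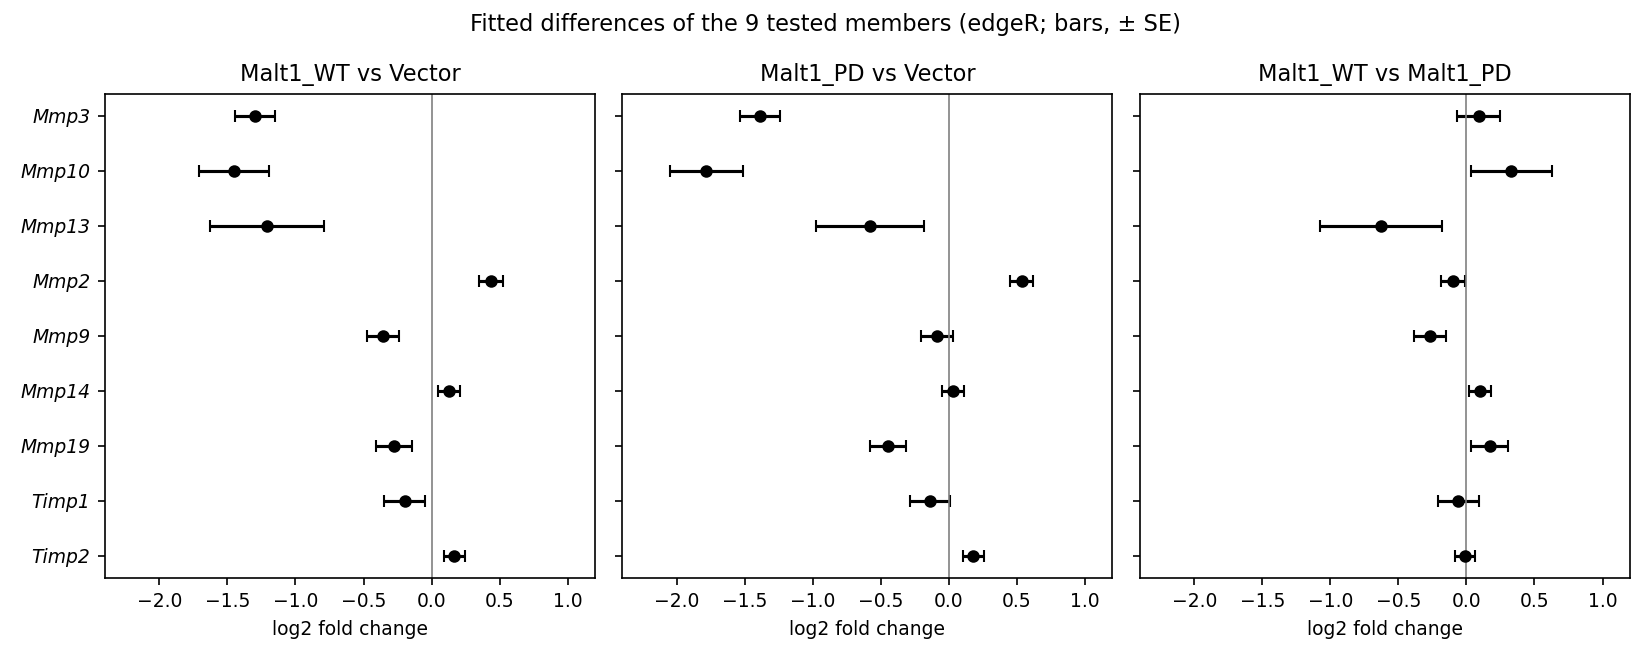
Log2 fold change with its SE (horizontal axis) of the 9 tested members in Malt1_WT against Vector, Malt1_PD against Vector, and Malt1_WT against Malt1_PD. Mmp3 and Mmp10 lie between -1.78 and -1.30 in both comparisons with Vector, Mmp2 lies at 0.44 and 0.53, and in the third panel no member passed the threshold.

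Mmp3 and Mmp10 had the lowest log2 fold changes of the tested members against Vector. Mmp3 (ENSMUSG00000043613.8, chromosome 9, 7445822 to 7455975, + strand, GRCm38) encodes stromelysin-1, which cuts proteoglycans, laminin and fibronectin and activates the precursors of other MMPs. It was counted 138 and 167 times in the Malt1_WT libraries, 134 and 143 times in Malt1_PD, and 424 and 368 times in Vector. Scaled to library size, these were 9.82 and 8.33 CPM in Malt1_WT, 8.48 and 8.50 CPM in Malt1_PD, and 23.9 and 20.6 CPM in Vector. All 4 libraries with added Malt1 lay below both Vector libraries, and no values overlapped. In bulk RNA, fewer cells that express a gene and less RNA per cell cannot be told apart. The means were 9.07 ± 1.06 CPM in Malt1_WT, 8.49 ± 0.0148 CPM in Malt1_PD and 22.2 ± 2.30 CPM in Vector (SD, n = 2 each). Mmp3 was 2.46-fold lower in Malt1_WT than in Vector (log2 fold change -1.30 ± 0.15, SE) and 2.62-fold lower in Malt1_PD than in Vector (-1.39 ± 0.15). Its edgeR adjusted p, after Benjamini-Hochberg adjustment over all genes, was 0.092 in Malt1_WT and 0.0629 in Malt1_PD, and it stood at rank 3 of 14675 genes by p in either comparison. Over the alternatives, 7 of 14 put it past the threshold in Malt1_WT and 7 of 14 in Malt1_PD, with log2 fold changes between -1.42 and -1.18 and between -1.49 and -1.28. With the forms pooled it fell 2.54-fold (-1.35 ± 0.12, edgeR adjusted p = 0.0155). That call was lost without Malt1_WT replicate 2 (adjusted p = 0.0662), Malt1_PD replicate 1 (0.244) or Malt1_PD replicate 2 (0.273).

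The paralog Mmp10 (ENSMUSG00000047562.3, chromosome 9, 7502352 to 7510240, + strand) encodes stromelysin-2, with a similar range of substrates. Its CPM values were 2.35 and 1.80 in Malt1_WT, 1.83 and 1.43 in Malt1_PD, and 5.12 and 6.11 in Vector, from 24 to 109 counts a library. As for Mmp3, no Malt1 library reached a Vector library. Mmp10 stood 2.74-fold lower in Malt1_WT than in Vector (log2 fold change -1.45 ± 0.26, edgeR adjusted p = 0.249) and 3.44-fold lower in Malt1_PD than in Vector (-1.78 ± 0.27, edgeR adjusted p = 0.154). It was past the threshold under 4 of 13 alternatives in Malt1_WT, where DESeq2 gave it no adjusted p, and 6 of 14 in Malt1_PD. Counted from the lowest log2 fold change of all 14675 genes, Mmp10 stood at rank 30 in Malt1_WT and at rank 18 in Malt1_PD. Mmp3 and Mmp10 share sequence: 8.39% of the 50-base windows of Mmp3 transcripts also occur in a transcript of Mmp10 or Gm15244, and 8.37% of those of Mmp10 occur in Mmp3 (reads were 150 bases long, and how many could not be assigned was not tested). Mmp3 held between 3.23 and 5.70 times the RPKM of Mmp10 in the 6 libraries.

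Mmp13 (ENSMUSG00000050578.10, chromosome 9, 7272514 to 7283331, + strand) encodes collagenase-3, the main enzyme that cuts fibrillar collagen in mice. It was near the lower limit of detection, with 7 and 12 counts in Malt1_WT, 16 and 12 in Malt1_PD, and 21 and 25 in Vector. These are 0.498 and 0.598 CPM in Malt1_WT, 1.01 and 0.713 CPM in Malt1_PD, and 1.18 and 1.40 CPM in Vector, an order in which the 3 groups do not overlap. The log2 fold change was -1.21 ± 0.42 in Malt1_WT against Vector (edgeR adjusted p = 0.602) and -0.58 ± 0.40 in Malt1_PD against Vector (edgeR adjusted p = 0.734). None of the 13 alternatives that gave Mmp13 an adjusted p put it past the threshold in either comparison, and DESeq2 gave it none.

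Some markers of other cell types stood lower in the same libraries as Mmp3, and others of the same lists did not. Ly6g, a neutrophil surface marker, stood at 5.27 and 3.79 CPM in Malt1_WT, 4.05 and 2.97 CPM in Malt1_PD, and 9.46 and 7 CPM in Vector. It carried nearly the whole sum of the 5 neutrophil markers (3.39 to 5.55 CPM in the Malt1 libraries and 7.17 to 9.57 CPM in Vector), since Camp, Ngp and Mpo had 0 to 5 counts a library and Ltf had no row. Camp went the other way, with 4 and 5 counts in Malt1_WT, 3 and 5 in Malt1_PD, and 1 and 1 in Vector. The 6 macrophage markers summed to 7.90 and 9.22 CPM in Malt1_WT, 8.35 and 7.37 CPM in Malt1_PD, and 11 and 9.13 CPM in Vector, with Adgre1 at 0 to 2 counts. That sum overlapped between Malt1_WT and Vector, and of its genes Lyz2 overlapped between Malt1_PD and Vector. The 5 fibroblast markers summed to 634 and 670 CPM in Malt1_WT, 644 and 646 CPM in Malt1_PD, and 609 and 644 CPM in Vector, a sum made up mostly of Col3a1. Single fibroblast markers differed in both directions. Dcn stood at 6.05 and 6.13 CPM in Malt1_WT, 6.9 and 6.66 CPM in Malt1_PD, and 9.85 and 12.5 CPM in Vector (log2 fold change -0.87 ± 0.17 in Malt1_WT and -0.72 ± 0.17 in Malt1_PD). Lum had 0 and 1 counts in Malt1_WT, 0 and 2 in Malt1_PD, and 5 and 4 in Vector, while Col1a1, given with the matrix genes, was higher in all 4 Malt1 libraries. The part of these cell types in the Mmp3 and Mmp10 levels was not tested.

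The gelatinase genes lay on different sides of Vector. Mmp2 (ENSMUSG00000031740.8, chromosome 8, 92827291 to 92853420, + strand), the gene of gelatinase A, stood at 105 and 109 CPM in Malt1_WT, 114 and 115 CPM in Malt1_PD, and 75.1 and 83.5 CPM in Vector. Both Malt1 groups lay above Vector without overlap, and Malt1_PD above Malt1_WT. Mmp2 was 1.35-fold higher in Malt1_WT than in Vector (log2 fold change 0.44 ± 0.09, edgeR adjusted p = 0.269) and 1.45-fold higher in Malt1_PD than in Vector (0.53 ± 0.09, edgeR adjusted p = 0.155). It passed the threshold under 3 of 14 alternatives in Malt1_WT and 6 of 14 in Malt1_PD, and its log2 fold change stayed between 0.36 and 0.62 over them. Mmp9 (ENSMUSG00000017737.2, chromosome 2, 164940780 to 164955850, + strand), the gene of gelatinase B, stood at 19.7 and 22.7 CPM in Malt1_WT, 26.6 and 24.7 CPM in Malt1_PD, and 26.1 and 28.4 CPM in Vector. Only the Malt1_WT libraries lay apart from Vector, while the Malt1_PD values overlapped those of Vector. The log2 fold changes of Mmp9 were -0.36 ± 0.12 in Malt1_WT against Vector (edgeR adjusted p = 0.574) and -0.09 ± 0.12 in Malt1_PD against Vector (edgeR adjusted p = 0.862).

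Mmp14 (ENSMUSG00000000957.11, chromosome 14, 54431612 to 54445364, + strand), whose membrane-type enzyme cuts collagen at the cell surface, had the smallest log2 fold change of the 7 MMPs against Vector in Malt1_WT and in Malt1_PD. It stood at 168 and 179 CPM in Malt1_WT, 159 and 165 CPM in Malt1_PD, and 162 and 156 CPM in Vector. Its log2 fold change was 0.13 ± 0.08 in Malt1_WT against Vector and 0.03 ± 0.08 in Malt1_PD against Vector (edgeR adjusted p = 0.8 and 0.946), with 95% intervals of -0.05 to 0.31 and -0.15 to 0.21. Mmp19 (ENSMUSG00000025355.7, chromosome 10, 128790910 to 128800824, + strand), which acts on basement-membrane proteins, stood at 16.2 and 14.9 CPM in Malt1_WT, 12.5 and 15.0 CPM in Malt1_PD, and 18.7 and 18.8 CPM in Vector. All 4 Malt1 libraries were below the Vector pair, with log2 fold changes of -0.28 ± 0.13 in Malt1_WT and -0.45 ± 0.13 in Malt1_PD against Vector (edgeR adjusted p = 0.732 and 0.436). Exons of Mmp19 overlap those of Tmem198b and of the antisense transcript Gm47093 on the opposite strand, and since no source used here gives the strand setting of the counting, its counts are less certain.

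The inhibitors differed little between the groups. Timp2 (ENSMUSG00000017466.9, chromosome 11, 118301069 to 118355740, - strand), which both inhibits MMPs and helps Mmp14 to activate the Mmp2 precursor, stood at 434 and 439 CPM in Malt1_WT, 438 and 442 CPM in Malt1_PD, and 375 and 402 CPM in Vector. The 4 Malt1 libraries differed from each other by less than they did from Vector, and none overlapped it. The log2 fold changes were 0.17 ± 0.07 in Malt1_WT and 0.18 ± 0.07 in Malt1_PD against Vector (edgeR adjusted p = 0.705 and 0.568). Timp1 (ENSMUSG00000001131.11, chromosome X, 20870166 to 20874735, + strand, within the gene Syn1 of the opposite strand), a secreted inhibitor of most soluble MMPs, stood at 92.9 and 76.4 CPM in Malt1_WT, 93.1 and 83.2 CPM in Malt1_PD, and 110 and 83.8 CPM in Vector. In each group replicate 1 was the higher, and the ranges of all 3 groups overlapped. Its log2 fold changes of -0.20 ± 0.15 in Malt1_WT and -0.14 ± 0.15 in Malt1_PD against Vector (edgeR adjusted p = 0.841 and 0.828) became 0.0090 and 0.07 without Vector replicate 1, and -0.24 and -0.19 with the length trend removed. Timp3 (ENSMUSG00000020044.13, chromosome 10, 86300372 to 86349506, + strand), a matrix-bound inhibitor that also blocks ADAM proteases, was counted 0 and 1 times in Malt1_WT, 1 and 1 in Malt1_PD, and 0 and 0 in Vector. All 6 values lie under the floor of 3 counts, so no fold is given.

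Added up per length, the 7 MMPs reached overlapping sums in Malt1_WT and Vector, with another make-up. Their summed RPKM was 76.6 and 78.9 in Malt1_WT, 77.9 and 78.8 in Malt1_PD, and 78.8 and 79.8 in Vector. The chromosome 9 members Mmp3, Mmp10 and Mmp13 made up 8.30 ± 1.19% of that sum in Malt1_WT, 7.64 ± 0.371% in Malt1_PD and 20.3 ± 1.21% in Vector (SD, n = 2 each). Mmp2 made up 40.9 ± 0.290% in Malt1_WT, 43.4 ± 0.231% in Malt1_PD and 29.6 ± 1.94% in Vector. Neither share overlapped between the Malt1 groups and Vector. The ratio of Mmp3 to Mmp2 RPKM was 0.175 and 0.143 in Malt1_WT, 0.139 and 0.138 in Malt1_PD, and 0.595 and 0.462 in Vector. The summed RPKM of the TIMPs was 2.52 to 2.82 times that of the MMPs in Malt1_WT, 2.63 to 2.79 times in Malt1_PD, and 2.47 to 2.80 times in Vector, ranges that overlap. These sums follow from the members picked and carry no test, and transcript levels say nothing of protein or of enzyme activity. They leave out Mmp11, at 12.6 to 14.4 RPKM. Over all 18 MMP genes with a row, the sum was 91.9 and 94 RPKM in Malt1_WT, 93.4 and 94.7 in Malt1_PD, and 94.5 and 97.5 in Vector. On that wider sum Malt1_WT did not overlap Vector.

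**Figure D3:**
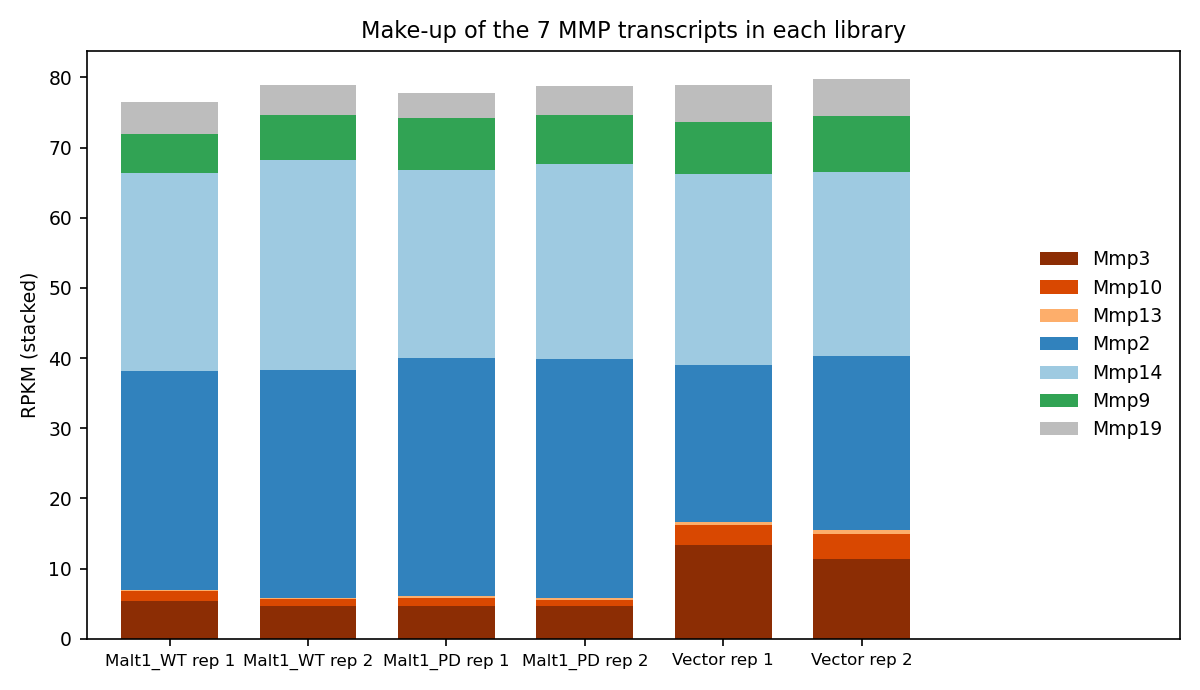
Stacked RPKM of the 7 MMP members in each of the 6 libraries, starting at 0. The total height stays between 76.6 and 79.8 RPKM, while the part of Mmp3, Mmp10 and Mmp13 at the foot of the bar is 5.81 to 7 RPKM in the Malt1 libraries and 15.5 to 16.7 RPKM in the Vector libraries.

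The low members of chromosome 9 sit in the MMP gene cluster, which holds 10 annotated MMP genes in the window examined (500 kb on either side of the 3 members). Of the 13 genes tested in the window, 5 were MMP genes. Beside the 3 members these were Mmp1a, annotated as a polymorphic pseudogene, and Mmp12, the gene of macrophage elastase. Mmp1a was counted 1 and 5 times in Malt1_WT, 4 and 3 times in Malt1_PD, and 14 and 11 times in Vector. Mmp12 was counted 5 and 8 times in Malt1_WT, 4 and 11 times in Malt1_PD, and 12 and 16 times in Vector. Both genes are rare transcripts that were lower in the Malt1 libraries. Mmp1a passed the count filter through the Vector libraries alone, so it had to lie higher in Vector. Mmp12 passed through these and 1 Malt1_PD library. It had to lie higher in Vector than in Malt1_WT, while against Malt1_PD the filter favoured Vector without fixing the direction. Neither gene lends support. The 8 other genes, among them Dync2h1 and Dcun1d5 on one side and Tmem123, Birc2, Birc3 and Yap1 on the other, had log2 fold changes between -0.09 and 0.47 in Malt1_WT and between -0.04 and 0.40 in Malt1_PD against Vector. Birc3, a known NF-kB target gene, stood at 9.75 and 8.68 CPM in Malt1_WT, 9.17 and 8.74 CPM in Malt1_PD, and 9.29 and 7.68 CPM in Vector. Of the cluster's untested MMP genes, Mmp1b had 9 and 4 counts in Malt1_WT, 4 and 0 in Malt1_PD, and 2 and 3 in Vector. Mmp7 had 1 count in all, and Mmp8 overlapped between the groups. No test set the MMP genes against their neighbours.

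**Figure D4:**
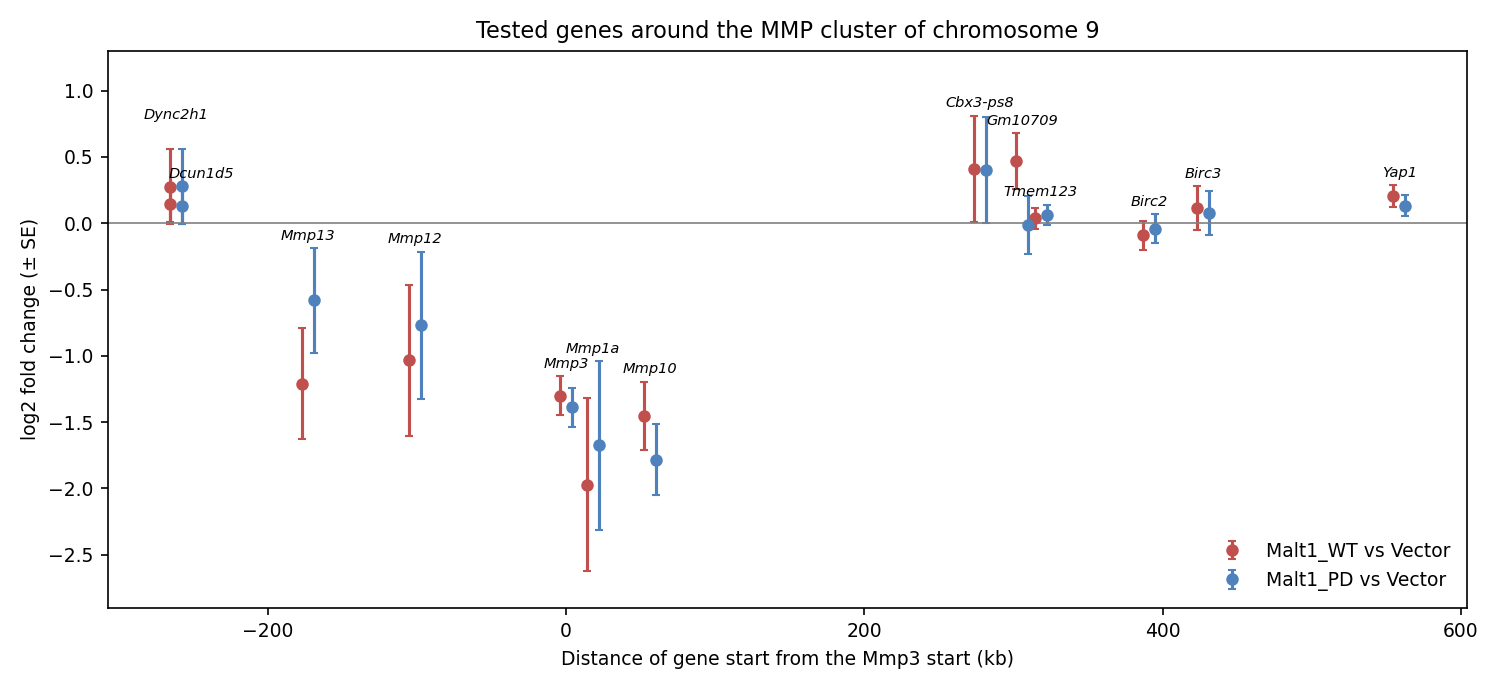
Log2 fold change with its SE (vertical axis) of the 13 tested genes around the cluster, by distance of the gene start from the Mmp3 start in kb, for Malt1_WT against Vector and Malt1_PD against Vector. The 5 MMP genes lie at -0.58 or lower and the 8 other genes between -0.09 and 0.47. Of the 5, Mmp1a and Mmp12 passed the count filter mainly through the Vector libraries and lend no support. Cluster genes that failed the filter, such as Mmp1b, are not shown.

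Malt1_WT was set against Malt1_PD to ask whether the form of the protein matters. Malt1 RNA itself stood at 67.2 and 82.1 CPM in Malt1_WT and at 106 and 95.7 CPM in Malt1_PD. The form of Malt1 and its amount therefore cannot be told apart in this comparison. By edgeR 0 of 9 members were called, against 0.00681% of all genes called higher and 0% lower, and DESeq2 and limma-voom called 0 each. With p unadjusted and under 0.05, 1 member was lower and 0 higher, against 1.08% and 0.838% of all genes. The libraries did not overlap for 3 members that were lower in Malt1_WT (Mmp2, Mmp9 and Mmp13) and 1 that was higher (Mmp14), against 16% and 16.1% of all genes. The log2 difference was 0.09 for Mmp3 (95% interval -0.27 to 0.45), 0.33 for Mmp10 (-0.35 to 1.01) and -0.63 for Mmp13 (-1.66 to 0.40). For the gelatinases it was -0.10 for Mmp2 (-0.30 to 0.10) and -0.27 for Mmp9 (-0.54 to -0.00033, unadjusted p = 0.0498 and adjusted p = 1 by edgeR). For Mmp3 the 95% interval runs from a 0.829-fold to a 1.36-fold level in Malt1_WT relative to Malt1_PD, and a p that misses the threshold does not show that the forms act alike.

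The rest of the family was mostly silent or steady. Of 17 other MMP and TIMP genes, 4 were tested: Mmp1a and Mmp12, described above, Mmp11 and Mmp28. Mmp11, the gene of stromelysin-3, stood at 36.2 and 34.9 CPM in Malt1_WT, 36.8 and 38.6 CPM in Malt1_PD, and 36.8 and 39.9 CPM in Vector. Mmp28, the gene of epilysin, stood at 5.98 and 6.68 CPM in Malt1_WT, 6.39 and 5.29 CPM in Malt1_PD, and 5.63 and 7.90 CPM in Vector. Mmp11 was lower in both Malt1_WT libraries than in either Vector library, by a log2 fold change of -0.11 ± 0.09, and Mmp28 overlapped between all groups. Mmp24, a membrane-type MMP gene best known from the nervous system, failed the filter with 0 and 2 counts in Malt1_WT, 0 and 0 in Malt1_PD, and 12 and 9 in Vector. Mmp8, the neutrophil collagenase gene, was counted 1 and 10 times in Malt1_WT, 8 and 8 times in Malt1_PD, and 8 and 17 times in Vector.

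Genes that activate, induce or meet MMPs were counted from lists, and none was called by edgeR in Malt1_WT or Malt1_PD against Vector. Of all genes, 3.8% lay lower and 3.3% higher at an unadjusted p under 0.05 in Malt1_WT, and 4.88% lower and 3.73% higher in Malt1_PD, the background for the counts of each list. The list of activation and control genes had 15 tested of 23, with a median log2 fold change of 0.10 in Malt1_WT and -0.045 in Malt1_PD, and unadjusted it had 3 lower and 1 higher in Malt1_WT and 3 lower and 0 higher in Malt1_PD (p under 0.05). Plat, which encodes tissue plasminogen activator, stood at 27.8 and 28.8 CPM in Malt1_WT, 24.9 and 22.9 CPM in Malt1_PD, and 37.7 and 38.4 CPM in Vector. St14, the gene of matriptase, a membrane serine protease, stood at 14.6 and 14.2 CPM in Malt1_WT, 14.5 and 14.6 CPM in Malt1_PD, and 20.2 and 18.4 CPM in Vector. Both genes lay lower in all 4 Malt1 libraries. Among 18 tested cytokine and receptor genes known to induce MMPs, of 20 listed, 4 were lower and 1 higher unadjusted in Malt1_WT, and 6 lower and 0 higher in Malt1_PD, with medians of -0.048 and -0.016. Il6 stood at 21.6 and 18.3 CPM in Malt1_WT, 14.2 and 16.5 CPM in Malt1_PD, and 37.7 and 30.5 CPM in Vector. The EGF receptor ligand genes Areg and Hbegf had log2 fold changes of -0.51 ± 0.11 and -0.40 ± 0.10 in Malt1_WT, and -0.67 ± 0.11 and -0.60 ± 0.10 in Malt1_PD. All 21 genes of AP-1, ETS and NF-kB factors were tested, and 0 in Malt1_WT and 4 in Malt1_PD lay lower unadjusted, with 0 higher in either and medians of -0.074 and -0.12. Of 24 tested matrix substrate genes among 30, 4 were higher and 2 lower unadjusted in Malt1_WT, and 5 higher and 2 lower in Malt1_PD, with medians of 0.10 and 0.11. Col1a1 led the higher ones at 54.8 and 61.3 CPM in Malt1_WT, 56.8 and 53.0 CPM in Malt1_PD, and 31 and 36.4 CPM in Vector. Among the lower ones, Spp1 had log2 fold changes of -0.49 ± 0.07 in Malt1_WT and -0.35 ± 0.07 in Malt1_PD against Vector. Of 13 tested ADAM and ADAMTS genes among 19, 1 was lower and 0 higher unadjusted in Malt1_WT, and 1 lower and 1 higher in Malt1_PD, with medians of -0.032 and -0.13.

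The genes whose log2 CPM followed Mmp3 most closely over the 6 libraries, among 9566 with a mean log2 CPM of at least 3, were Nup88 (Pearson r = 0.995), Pi4k2b (0.995), Carhsp1 (0.994), Scpep1 (0.994) and Slc9a3r1 (0.994). Their own differences were smaller than that of Mmp3: Nup88 stood at 172 and 170 CPM in Malt1_WT, 169 and 171 CPM in Malt1_PD, and 186 and 184 CPM in Vector. The closest to Mmp2 were Zfp865 (r = 0.997), Malt1 itself (0.996), Efnb1 (0.993), Rbm14 (0.993) and 2700081O15Rik (0.992). With 6 libraries in 3 groups, such values are a description with no test, and the genes share the libraries, their depth and length trend.

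**Figure D5:**
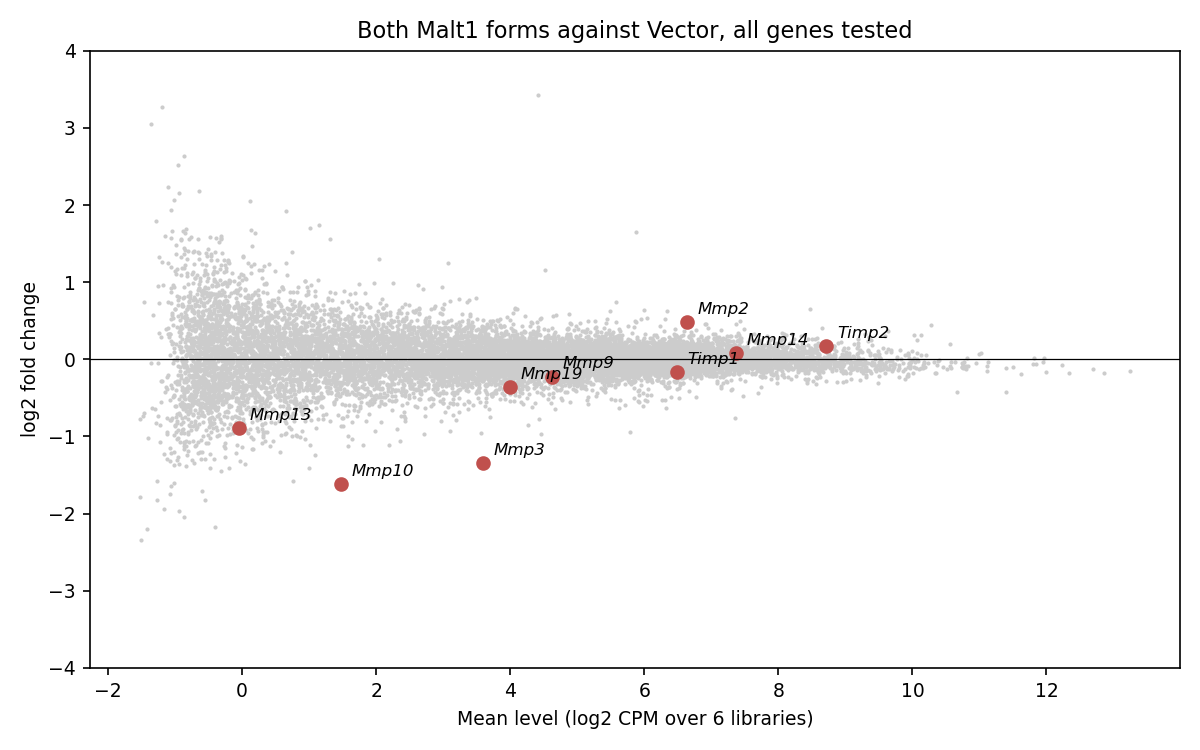
Mean level in log2 CPM over 6 libraries (horizontal axis) against the log2 fold change of the pooled Malt1 forms over Vector (vertical axis) for all 14675 genes tested, in grey, with the 9 tested members in red. Mmp10 and Mmp3 lie at -1.62 and -1.35, at the lower edge of the cloud at their levels, Mmp2 lies at 0.48 at its upper edge, and Mmp14, Timp1 and Timp2 lie within 0.18 of 0.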

How the data were processed

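Libraries of 6 E0771 samples were analysed from the table the authors deposited, which holds whole-number read counts per gene, not normalised, and a gene length per row. Trim Galore 0.6.0, STAR 2.7.3a, featureCounts 1.6.3 and GRCm38.p6 were used per the submitters' processing notes, which name no strand setting or annotation version. A further 6 columns of per-sample log2 values were not used. Gene positions come from GENCODE M21 (GRCm38), which held 28056 of 28063 identifiers, and promoters from RefSeq (GRCm38.p6). From the deposited counts, filterByExpr by group (minimum count 10) kept 14675 genes, and edgeR 4.0.16 in R 4.3.3 (TMM, glmQLFit, glmQLFTest) fitted a mean per group over all 6 libraries, with 3 residual degrees of freedom and a common dispersion of 0.0101. Benjamini-Hochberg adjustment covered all genes tested (threshold 0.05). The quasi-likelihood F gave SE and 95% intervals. CPM rest on TMM factors, RPKM divide CPM by the deposited length in kilobases. Correlations between genes used log2 CPM with a prior count of 2. Scripts were tested on simulated data. Alternatives were DESeq2 size factors, no filter, DESeq2 1.42.0, limma-voom (limma 3.58.1), the replicate number as a block, removal of the length trend, a fit of 2 groups, and leaving out each library. A further alternative, chosen after seeing the data, left out Vector replicate 1 and Malt1_WT replicate 1 together. It is included wherever the alternatives past the threshold are counted. Members and lists were chosen with earlier results of these data known. By the rule for naming genes, the 10 members were named throughout, with Malt1, up to 3 list members of smallest p (not every one is reported here) and the 5 genes most like Mmp3 or Mmp2. Other genes (Mmp24, Mmp8 and the neighbours in the cluster) were named after their values were seen.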

Additional observations from a re-analysis of the deposited data

How the results depend on the processing

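In the 3 comparisons with Vector, Mmp3, Mmp10, Mmp13, Mmp9 and Mmp19 stayed lower and Mmp2, Mmp14 and Timp2 higher under each alternative run. In Malt1_WT against Vector, Malt1_PD against Vector and the pooled forms against Vector, the genes called by edgeR numbered 1, 1 and 4, and the members called 0, 0 and 1. Without the low-count filter they were 113, 188 and 255 genes and 3, 3 and 3 members. With DESeq2 they were 31, 43 and 80 genes and 1, 3 and 3 members, and with the length trend removed 51, 87 and 195 genes and 1, 3 and 3 members. Leaving out a library gave 1 to 599, 0 to 928 and 1 to 1202 genes, and 0 to 3, 0 to 3 and 0 to 4 members, the highest without Vector replicate 2. In the pooled comparison the count was 201 genes without Vector replicate 1. With the replicate block there were 6, 9 and 52 genes and 1, 1 and 3 members. The labels state no pairing beyond the replicate number. The deviations of same-numbered libraries correlated at 0.68 between Malt1_WT and Vector, -0.0092 between Malt1_PD and Vector, and 0.029 between Malt1_WT and Malt1_PD. Whether same-numbered libraries of Malt1_WT and Vector share a batch was not tested. Without Vector replicate 1 and Malt1_WT replicate 1 together, an alternative chosen after seeing the data that rests on the spread of the Malt1_PD pair, there were 936, 2080 and 1754 genes and 4, 5 and 4 members. In Malt1_WT against Malt1_PD, where 1 gene and 0 members were called, the count was 12 genes without the filter, and 358 genes and 1 member (Timp1) without those 2 libraries; leaving out any library gave 1 gene and 0 members. Timp1 and, between the Malt1 forms, Mmp3 changed sign. Timp1 ranged from -0.38 to 0.0090, -0.32 to 0.0715 and -0.35 to 0.0403 in the 3 comparisons with Vector, and from -0.21 to 0.0759 in Malt1_WT against Malt1_PD, as each library was left out. Mmp3 ranged from -0.0285 to 0.21 in Malt1_WT against Malt1_PD. Without the 2 libraries, Timp1 stood at 0.0732 in Malt1_PD against Vector and Mmp3 at -0.0283 in Malt1_WT against Malt1_PD. The cause was not tested. Mmp13 and Timp3 are limited by depth, at 25 counts or fewer in any library.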
